A study of Mus musculus with 38 samples.

Results

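Immune checkpoint ligands are surface or secreted proteins that tune T cells by binding receptors on them. Cd274 (PD-L1) and Pdcd1lg2 (PD-L2) bind the inhibitory receptor Pdcd1, Cd80 and Cd86 bind the activating receptor Cd28 and the inhibitory receptor Ctla4, and Icosl binds the activating receptor Icos. Lgals9 encodes galectin-9, a secreted sugar-binding protein for which Havcr2 is a described receptor, and Ido1 encodes an enzyme that opens the tryptophan ring and so begins the kynurenine pathway. Cd274 and Ido1 are known interferon gamma responsive genes, and Cd80, Cd86 and Pdcd1lg2 are best known from macrophages and dendritic cells.

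These 7 genes were followed in mouse mammary tumor cells of the MMTV-PyMT model. Members were taken by gene name, with Ido1 carried under its older symbol Indo, which gave 10 probes of 41174 non-control probes and 7 genes of 28787. Cd80, Cd86 and Icosl each had a second probe. All 7 genes carried at least 1 probe, and none of their spots was marked as non-uniform or saturated.

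The 38 arrays came from 2 experiments in which small hyperplasias from 3-week-old female MMTV-PyMT mice that also carried actin-GFP were grafted into cleared fat pads of 3-week-old FVB/n females, whose own immune cells were retained. The first experiment held tumor cells from 6 untreated tumors, from 6 residual tumors taken 10 days after 1 round of docetaxel, doxorubicin and cyclophosphamide (TAC), and from 4 relapsed tumors taken 10 days after round 4, with rounds 21 days apart from week 8 after grafting. The age of the untreated tumors was not given in the sources used here. The second experiment held 5 adenomas (5-week outgrowths) and 6 carcinomas (18-week outgrowths). It also held 6 pools of disseminated cells from the lungs of mice with 18-week outgrowths (3 to 6 mice a pool). The last group was 5 samples of lung metastases from mice whose 18-week outgrowths had been removed. These were collected when breathing trouble first appeared, typically 8 to 10 weeks after removal. All samples of both experiments were GFP-positive cells obtained by sorting. The MMTV promoter is active in mammary epithelium and in some other organs, whereas the actin promoter labels nearly every cell type of the donor, so GFP marks graft origin and not epithelium alone.

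Each array compared Cy5-labelled sample RNA with a Cy3-labelled pool of mouse reference RNA. Values below are log2 ratios of sample to reference, so that 0 is the level of the reference and 1 is 2-fold above it. The reference holds different amounts of each transcript, and levels were therefore compared between samples and not between genes. The experiments were amplified differently and were analysed apart. A gene passed the test where its adjusted p in limma, over all 28787 genes, was below 0.05.

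Of a 10-gene mammary epithelial marker list, 9 or 10 genes were well above background on every array. The share of all probes well above background was 47.6% to 78.3%. It was 47.6% to 74.8% in adenomas, 66.8% to 76.0% in carcinomas, 63.0% to 75.3% in disseminated pools and 69.5% to 78.3% in metastases. Counts of detection in adenomas therefore do not come from arrays of equal sensitivity. Carcinoma replicate 6 was unlike the rest of its group: over all genes its values correlated with those of the other carcinomas at a median r of 0.756, where the group's highest such value was 0.958. In disseminated pools this value ranged from 0.708 to 0.849. In bulk samples of sorted cells, fewer cells of a type and less RNA per cell cannot be told apart.

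The probes lie as follows on mm7, the build of the array design. The Cd274 probe lies at chr19:29087711-29087770 and the Pdcd1lg2 probe at chr19:29170374-29170433, on the same chromosome and strand. The probes used for Cd86 (chr16:36323674-36323733, minus strand) and for Cd80 in the progression samples (chr16:38181436-38181495, plus strand) share chromosome 16. The Ido1 probe lies at chr8:23370259-23370318, the Lgals9 probe at chr11:79045037-79045096 and the Icosl probe at chr10:77734070-77734129. Exon or UTR positions were not assigned, since no annotation of that build was used.

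Because interferon is a known inducer of several of these genes, promoter windows from RefSeq (GRCm38.p6, 250 bases before to 50 bases after the start of the gene) were searched for the GAS motif TTCNNNGAA and for the core of the interferon-stimulated response element, a pair of GAAA copies in the same orientation with any 2 bases between them, on both strands. Windows were present for 5 of the 7 genes, Cd274, Pdcd1lg2, Cd80, Icosl and Lgals9. Lgals9 held 2 matches to the interferon-stimulated core, and no other window held a match to either motif. Over 32851 windows of the same length, 3.44% held the core and 8.30% held GAS. The windows of Lgals9, which alone held matches, and of Cd274, the checkpoint ligand best known as an interferon target, are shown, 5′ to 3′ along the gene, with matches in capitals.
Lgals9, chr11:78984875-78985174, minus strand: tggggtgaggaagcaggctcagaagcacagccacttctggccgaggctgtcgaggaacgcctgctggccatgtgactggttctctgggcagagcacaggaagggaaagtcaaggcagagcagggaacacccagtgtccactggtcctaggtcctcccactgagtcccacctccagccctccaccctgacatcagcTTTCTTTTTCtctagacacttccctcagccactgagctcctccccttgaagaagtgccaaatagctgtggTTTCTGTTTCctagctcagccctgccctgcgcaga
Cd274, chr19:29367188-29367487, plus strand: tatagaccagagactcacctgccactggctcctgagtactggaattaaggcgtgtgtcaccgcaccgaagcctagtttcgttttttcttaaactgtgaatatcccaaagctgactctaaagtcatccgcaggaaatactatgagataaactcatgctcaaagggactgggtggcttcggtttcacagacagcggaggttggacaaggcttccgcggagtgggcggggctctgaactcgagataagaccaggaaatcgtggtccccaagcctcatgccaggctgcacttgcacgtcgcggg
The Lgals9 matches, TTTCTTTTTC and TTTCTGTTTC, are the core read on the opposite strand, and they begin 55 bases before the start and at base 16 after it. A match is a run of letters and not a shown site of binding, and the lack of one says only that the letters are not in this window.

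The first question was whether the cells that persist after chemotherapy, or those that regrow, differ in these genes from untreated tumors. Ido1 was the gene with a pattern of detection: it was well above background in 6 of 6 residual tumors and in 0 of 6 untreated and 0 of 4 relapsed tumors. In residual replicates 1 to 6 its log2 ratios ranged from 0.40 to 2.49 with a median of 1.04, whereas untreated tumors ranged from -0.19 to 0.20 with a median of -0.15. The relapsed tumors read 0.21, 0.10, -0.16 and -0.03. The reference channel of the Ido1 probe was well above background on 0 of 6 untreated, 0 of 6 residual and 1 of 4 relapsed arrays. These ratios therefore mostly lack a measured reference level, and a value near 0 does not show the level of the reference. The residual tumors did not overlap with either other group.

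The level of Ido1 in residual tumors was at least 2.01-fold above untreated tumors, a lower bound because the untreated spots were not well above background and were set, array by array, at the lowest signal among probes that were, or at their own signal where that was higher. The fitted log2 difference was 1.19 ± 0.25 (SE), and its adjusted p of 0.0728 did not pass the test. Its size depended on the processing, from 1.03 to 3.98 over the alternatives. Without residual replicate 4, which held the highest value, the adjusted p was 0.0262, and without residual replicate 3, which held the lowest, it was 0.0386. These were the 2 of 12 fits with 1 array left out that passed, and the adjusted p reached 0.175 in the other 10. By the same kind of bound, relapsed tumors lay at least 1.92-fold below residual tumors. The fitted log2 difference was -1.11 ± 0.28 (adjusted p 0.171), and it ranged from -3.57 to -0.72 over the processing alternatives. Of the fits with 1 array left out, 1 of 10 passed, that without residual replicate 4 (adjusted p 0.0357). On the slide that carried both residual and untreated tumors, residual replicates exceeded the untreated one by 1.26, and on the slide with residual and relapsed tumors the relapsed minus residual difference was -0.49. With the slide as a fixed term, the adjusted p values were 0.692 and 0.830.

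**Figure D1:**
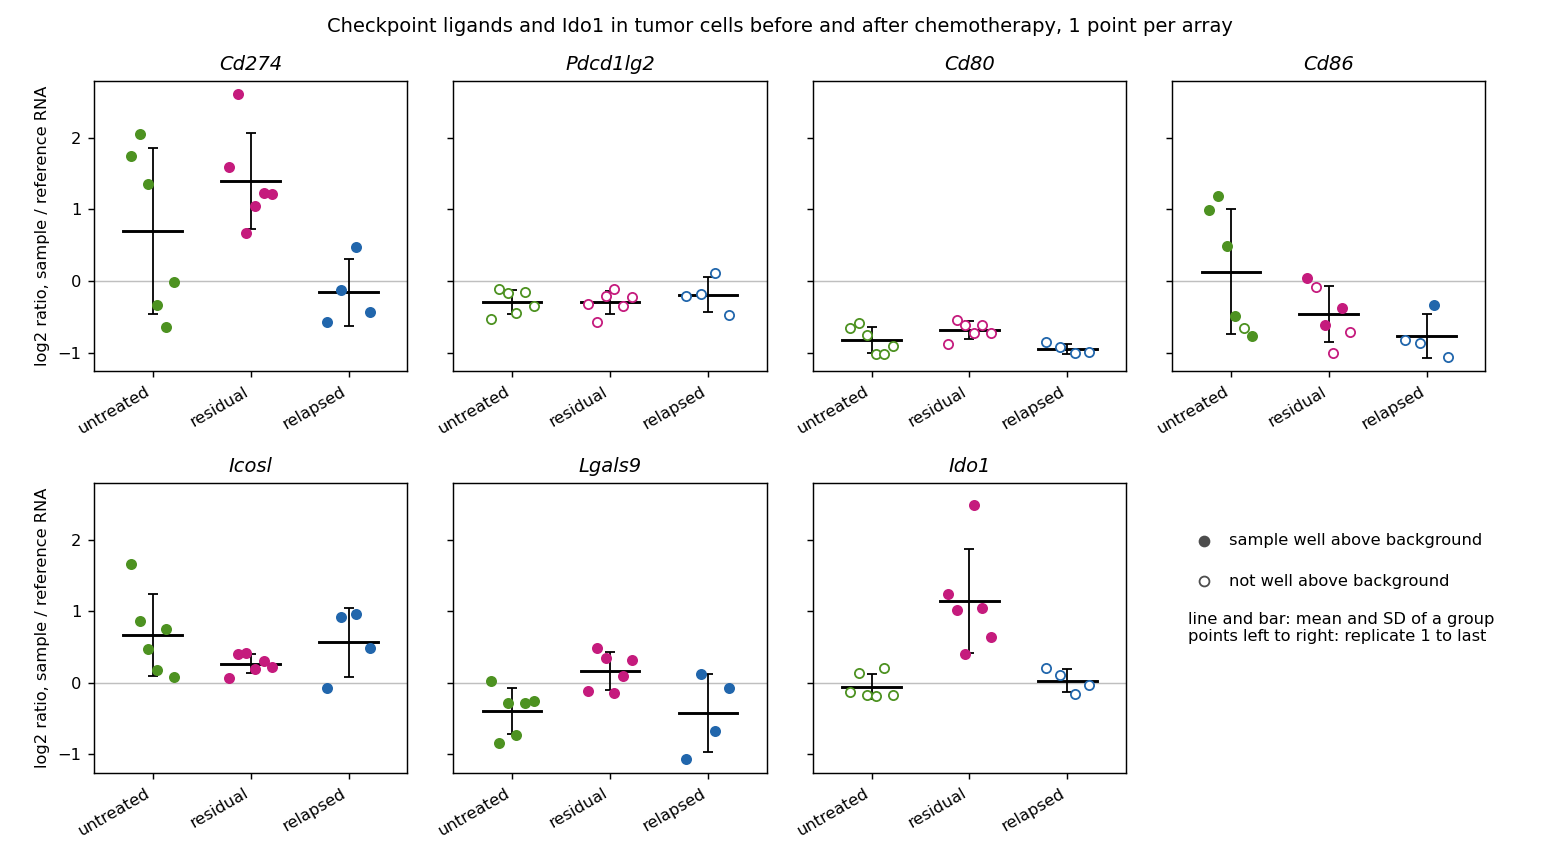
Log2 ratio of sample to reference RNA (vertical axis) for the 7 genes in 6 untreated, 6 residual and 4 relapsed tumors, 1 point per array, with the mean and SD of each group. Open points were not well above background. Ido1 is above background in the 6 residual tumors alone, and Cd274 spans -0.64 to 2.05 among untreated tumors.

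Cd274 was well above background in all 16 tumors of this experiment. Untreated tumors ranged from -0.64 to 2.05 (median 0.67), residual tumors from 0.68 to 2.61 (median 1.22), and relapsed tumors read -0.57, -0.12, 0.48 and -0.43. Relapsed tumors thus all lay below residual tumors, while untreated tumors overlapped both. Cd274 was ordered residual, untreated, relapsed by mean, and neither neighbouring pair passed the test (adjusted p 0.690 and 0.768). The relapsed minus residual difference was -1.55 ± 0.50 (adjusted p 0.397), and the residual minus untreated difference was 0.70, with a 95% interval from -0.25 to 1.66.

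The untreated tumors fell into high and low readings of Cd274. Replicates 1, 2 and 3 read 1.75, 2.05 and 1.36, and replicates 4, 5 and 6 read -0.33, -0.64 and -0.01. Cd86 was split the same way, between 0.49 and 1.19 in replicates 1 to 3 against -0.76 to -0.49 in replicates 4 to 6. The mean of a 14-gene macrophage list moved with it, at 1.77, 2.18 and 1.58 in replicates 1 to 3 and -0.31, -0.25 and -0.07 in replicates 4 to 6. The part of macrophage RNA in these values was not tested.

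Lgals9, ordered residual, untreated, relapsed, ranged from -0.14 to 0.49 in residual tumors and from -0.84 to 0.03 in untreated tumors, and read -1.06, 0.12, -0.67 and -0.07 in relapsed tumors. The residual minus untreated difference was 0.56 ± 0.20 (adjusted p 0.382). Cd86 was well above background in 5 of 6 untreated, 3 of 6 residual and 1 of 4 relapsed tumors, with group means of 0.13, -0.46 and -0.77. Its relapsed minus untreated difference was -0.90 ± 0.36 (adjusted p 0.527). Icosl was well above background in all 16 tumors and spanned 0.07 to 1.65, 0.07 to 0.42 and -0.08 to 0.96 in untreated, residual and relapsed tumors, without a difference that passed. Cd80, by both of its probes, and Pdcd1lg2 were not well above background in any of the 16 tumors, and no level can be given for them there.

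Over the list, 0 of 7 genes passed the test in residual minus untreated (0.198% of all genes did), in relapsed minus untreated (0.00695%) and in relapsed minus residual (0.274%). At an unadjusted p below 0.05 the counts were 2, 1 and 4 of 7, where 9.09%, 7.67% and 7.80% of all genes were below it, and 1 of the 4 was Cd80, which has no measured level in these tumors. Groups did not overlap for 1 of 7 genes, Ido1, in residual minus untreated (0.789% of all genes) and for 2 of 7, Ido1 and Cd274, in relapsed minus residual (1.70%), and for 0 of 7 in relapsed minus untreated (1.67%).

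Partners of these genes were measured on the same arrays. Of 12 checkpoint receptors and partners, 0 passed in residual minus untreated and relapsed minus untreated, and 1 fell in relapsed minus residual. That gene, named after its values were seen, was Tnfrsf14, the herpesvirus entry mediator that binds Btla, at -1.58 ± 0.22 (adjusted p 0.0029). Of 15 genes that lead from interferon gamma to Cd274 and Ido1, 1 rose in residual minus untreated and 2 fell in relapsed minus residual. One of the latter, also named after its values were seen, was Irf1, a transcription factor of the interferon response, at -1.63 ± 0.24 (adjusted p 0.0037), with group means of 1.45, 2.35 and 0.72 in untreated, residual and relapsed tumors. Of 13 measured genes of the kynurenine pathway and 15 other checkpoint ligands, 0 passed in any of these comparisons, and the list medians lay between -0.16 and 0.11. Over all genes, 0.198% passed in residual minus untreated, 0.00695% in relapsed minus untreated and 0.274% in relapsed minus residual, in either direction.

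None of the cell type lists held a gene that passed in these comparisons. The macrophage list mean ranged from -0.31 to 2.18 in untreated, from -0.46 to 1.45 in residual and from -0.73 to 0.72 in relapsed tumors. The 12-gene T and NK cell list ranged from -0.13 to 0.14, -0.11 to 0.30 and -0.24 to -0.03. Ifng, the interferon gamma gene, is not in that list. It was well above background in 3 of 6 untreated, 5 of 6 residual and 0 of 4 relapsed tumors. Ido1 was detected in residual tumors alone, and in 0 of 6 untreated tumors although Ifng was detected in 3 of them. A link between these genes, and the part of T or NK cell RNA in their detection, was not tested.

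The second question was how the genes differ over progression, from adenoma to carcinoma, to disseminated cells in the lung and to lung metastases. The surface ligands Cd274, Pdcd1lg2, Cd80, Cd86 and Icosl were higher in disseminated cells than in adenomas and carcinomas, with fitted folds against adenomas from 6.50 for Cd274 to 14.7 for Pdcd1lg2. Cd274 was well above background in 5 of 5 adenomas, Cd86 and Icosl in 4, Pdcd1lg2 in 3 and Cd80 in 1. The fold of Cd80 against adenomas thus rests largely on spots near background, and that of Pdcd1lg2 in part. In metastases they varied widely, and high or low readings fell in the same samples. Ido1 was lower in disseminated cells and in metastases than in adenomas by less than 2-fold, and Lgals9 passed no comparison.

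**Figure D2:**
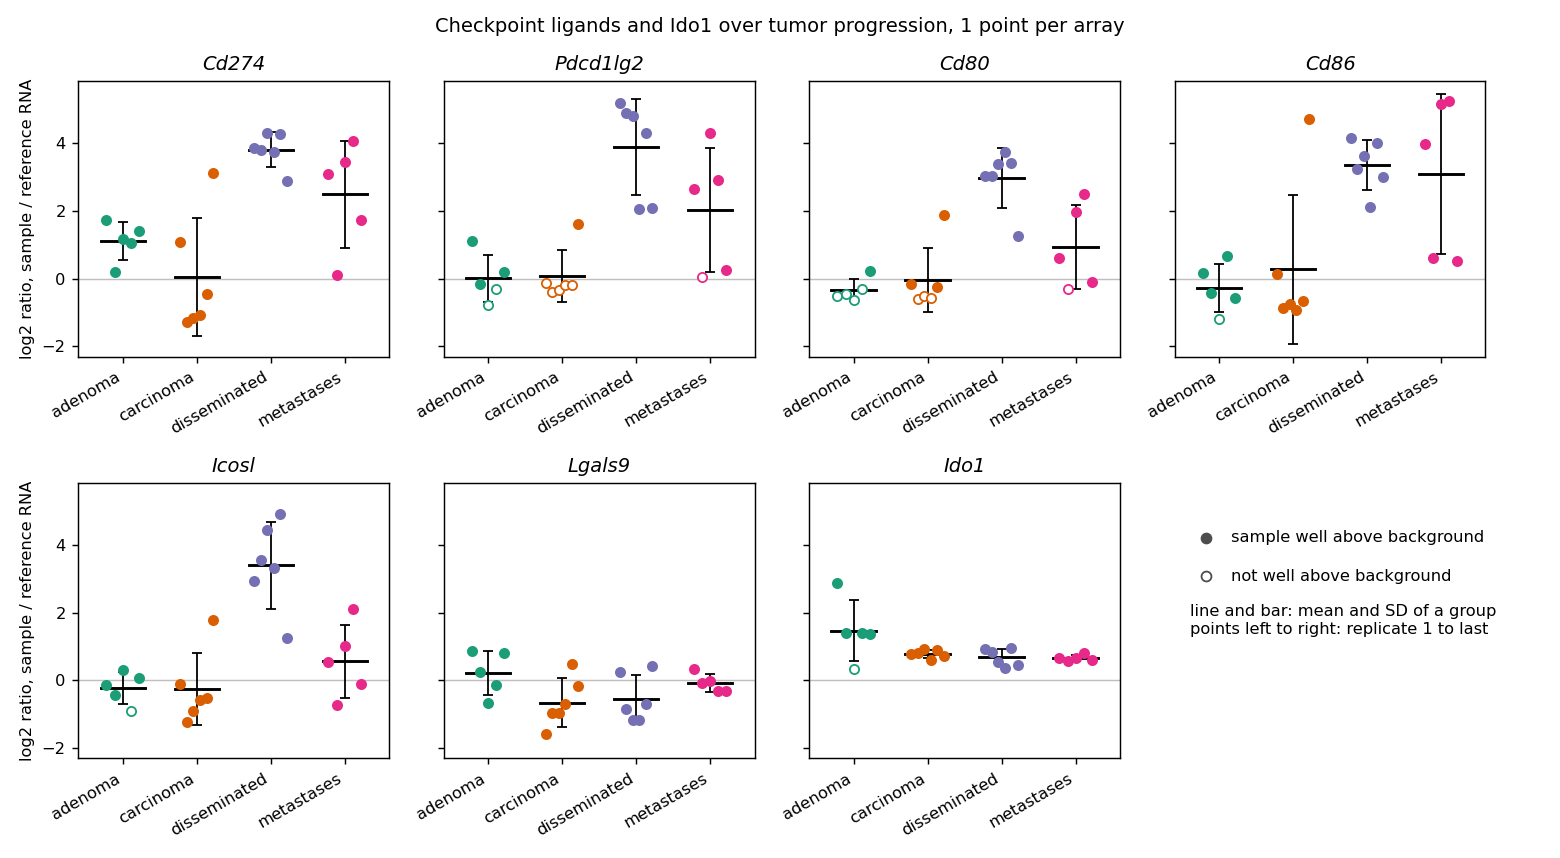
Log2 ratio of sample to reference RNA (vertical axis) for the 7 genes in 5 adenomas, 6 carcinomas, 6 pools of disseminated cells and 5 metastases, 1 point per array, with the mean and SD of each group. Open points were not well above background. The disseminated pools lie above all adenomas for Cd274, Pdcd1lg2, Cd80, Cd86 and Icosl, and 1 carcinoma lies far above the others for several genes.

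Cd274 read 1.72, 0.19, 1.17, 1.06 and 1.39 in adenomas and 2.87 to 4.30 (median 3.83) in disseminated pools. Carcinomas ranged from -1.29 to 3.13 (median -0.76), and the highest of them was replicate 6. The metastases read 3.09, 0.12, 3.45, 4.07 and 1.72. Disseminated pools did not overlap with adenomas, and they overlapped with carcinomas only through carcinoma replicate 6.

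The log2 difference of Cd274 was 2.70 ± 0.72 (adjusted p 0.0127) from adenoma to disseminated cells and 3.77 ± 0.69 (adjusted p 0.0007) from carcinoma. Metastases exceeded carcinomas by 2.45 ± 0.72 (adjusted p 0.0196), and this was lost without metastases replicate 1, 3 or 4 (adjusted p 0.0503, 0.0580 and 0.0604). Groups ordered disseminated, metastases, adenoma, carcinoma by mean, and no pair of neighbours in that order differed past the test (adjusted p 0.255, 0.182 and 0.360).

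Pdcd1lg2, the second ligand of Pdcd1, was well above background in 3 of 5 adenomas, 1 of 6 carcinomas, 6 of 6 disseminated pools and 4 of 5 metastases. Adenomas read 1.10, -0.16, -0.77, -0.31 and 0.18, carcinomas -0.40 to 1.62 (median -0.18), disseminated pools 2.07 to 5.20 (median 4.54) and metastases 2.65, 0.03, 4.31, 2.91 and 0.24. It was the only member whose disseminated pools overlapped with neither adenomas nor carcinomas. The differences were 3.88 ± 0.73 against adenomas (adjusted p 0.0018) and 3.82 ± 0.70 against carcinomas (adjusted p 0.0007). The size against carcinomas rests largely on spots that were not well above background. On adenoma arrays the reference channel was well above background in 2 of 5, so most adenoma ratios lack a measured reference level. The rise in metastases, 2.02 against adenomas and 1.97 against carcinomas, did not pass (adjusted p 0.0529 and 0.0598).

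Cd80 was well above background in 1 of 5 adenomas, 3 of 6 carcinomas, 6 of 6 disseminated pools and 4 of 5 metastases. Disseminated pools ranged from 1.25 to 3.73 (median 3.21), adenomas read -0.53, -0.46, -0.62, -0.30 and 0.21, carcinomas lay between -0.60 and 1.88 (median -0.38), and metastases read 0.59, -0.30, 1.96, 2.50 and -0.09. The disseminated pools were higher than adenomas by 3.31 ± 0.53 (adjusted p 0.0006) and than carcinomas by 3.01 ± 0.51 (adjusted p 0.0004). Metastases were lower than disseminated pools by 2.04 (-2.04 ± 0.53, adjusted p 0.0154). This last call was lost without metastases replicate 2 (adjusted p 0.0514). The other Cd80 probe rose by less, 1.95 against adenomas and 2.05 against carcinomas (adjusted p 0.0150 and 0.0059), and on it the metastases minus disseminated difference was -0.96 and did not pass (adjusted p 0.257).

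Cd86, the other ligand of Cd28 and Ctla4, was high in 1 carcinoma and in 3 of the 5 metastases. Carcinomas ranged from -0.91 to 4.71 (median -0.72), with replicate 6 highest, and metastases read 3.96, 0.60, 5.15, 5.25 and 0.52. Adenomas read 0.16, -0.44, -1.19, 0.65 and -0.58, and disseminated pools 2.11 to 4.15 (median 3.43). Metastases and disseminated pools did not differ past the test (-0.26, 95% interval -2.31 to 1.78).

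Against adenomas, Cd86 rose by 3.64 ± 0.98 in disseminated pools (adjusted p 0.0134) and by 3.37 ± 1.02 in metastases (adjusted p 0.0182). The metastasis call was lost without metastases replicate 3 or 4 (adjusted p 0.0559 and 0.0568). Against carcinomas, it rose by 3.09 ± 0.93 in disseminated pools (adjusted p 0.0193) and by 2.83 ± 0.98 in metastases (adjusted p 0.0443). With slide as a fixed term the latter did not pass (2.89, adjusted p 0.0543). It passed in 3 of 11 fits that left out 1 array, and its adjusted p was 0.0017 without carcinoma replicate 6. The second Cd86 probe gave 3.22 and 2.53 against adenomas (adjusted p 0.0110 and 0.0327) and 2.66 and 1.97 against carcinomas (adjusted p 0.0175 and 0.0948) for disseminated cells and metastases.

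Icosl ranged from 1.26 to 4.90 (median 3.43) in disseminated pools and read 0.55, -0.74, 1.01, 2.10 and -0.12 in metastases. Adenomas read -0.14, -0.42, 0.31, -0.91 and 0.08, and carcinomas spanned -1.24 to 1.79 (median -0.54). Disseminated pools stood above adenomas by 3.61 ± 0.60 (adjusted p 0.0008) and above carcinomas by 3.66 ± 0.58 (adjusted p 0.0002). Metastases were lower than disseminated pools by 2.84 (-2.84 ± 0.60, adjusted p 0.0044), and this passed in all 11 fits that left out 1 array. The second Icosl probe was well above background on 2 of 38 arrays and gives no level.

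Ido1 went the other way. Adenomas read 2.87, 1.38, 0.34, 1.40 and 1.36, the third of them not well above background, and the other groups were narrow, at 0.60 to 0.92 in carcinomas, 0.36 to 0.95 in disseminated pools and 0.57 to 0.82 in metastases. All of the latter 17 arrays were well above background, in the reference channel as well. On adenoma arrays the reference channel was well above background in 3 of 5, so some adenoma ratios lack a measured reference level. The 4 adenomas other than replicate 3 lay above every array of the later groups, while adenoma replicate 3 lay below all of them.

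Ido1 was lower than in adenomas by 0.68 in carcinomas (-0.68 ± 0.26, adjusted p 0.0960), by 0.79 in disseminated pools (-0.79 ± 0.26, adjusted p 0.0388) and by 0.81 in metastases (-0.81 ± 0.28, adjusted p 0.0329). The call for disseminated pools held in 4 of 11 fits that left out 1 array and that for metastases in 4 of 10. Without adenoma replicate 1 the differences were -0.44 and -0.46 (adjusted p 0.0743 and 0.0598), and without adenoma replicate 3 the fall in carcinomas passed (adjusted p 0.0128). Within the 3 slides that carried adenomas and disseminated pools together, the difference was -1.44, -0.62 and 0.25.

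Lgals9 read 0.87, 0.23, -0.66, -0.15 and 0.80 in adenomas and 0.33, -0.08, -0.01, -0.30 and -0.32 in metastases. Carcinomas ranged from -1.60 to 0.47 (median -0.83) and disseminated pools from -1.19 to 0.42 (median -0.77). All 4 groups overlapped. The largest difference, carcinoma minus adenoma, was -0.88 ± 0.36 (adjusted p 0.121).

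**Figure D3:**
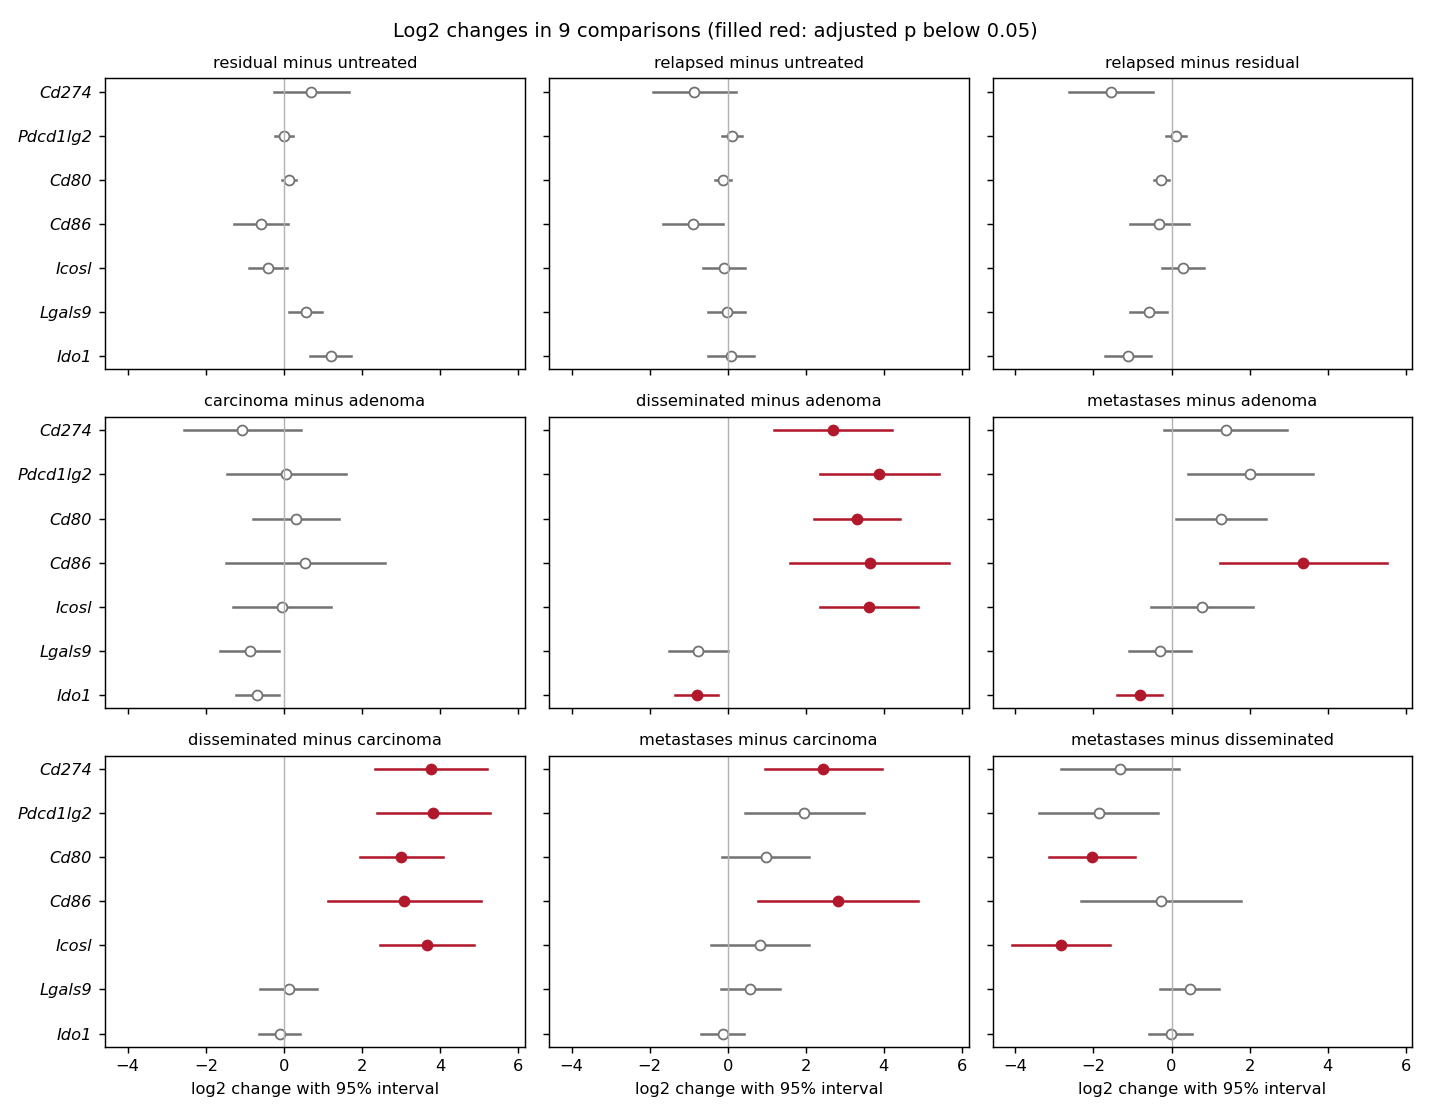
Log2 change (horizontal axis) with its 95% interval for the 7 genes (vertical axis) in each of the 9 comparisons. Filled red points have an adjusted p below 0.05. No point is red in the 3 chemotherapy comparisons or in carcinoma minus adenoma, and the 5 surface ligands are red in both disseminated comparisons against primary tumors.

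Over the list, 6 of 7 genes passed in disseminated minus adenoma, 5 higher and 1 lower, where 20.6% of all genes passed (8.35% higher and 12.2% lower). In disseminated minus carcinoma 5 of 7 passed, all of them higher, against 26.5% of all genes (9.05% higher). In metastases minus adenoma 2 of 7 passed, Cd86 higher and Ido1 lower (28.5% of all genes, 13.1% higher and 15.4% lower), and in metastases minus carcinoma 2 of 7, Cd274 and Cd86, both higher (21.9%, and 7.83% higher). In metastases minus disseminated 2 of 7, Cd80 and Icosl, were lower (13.0% passed in either direction, 6.07% lower), and in carcinoma minus adenoma 0 of 7 passed (11.8%), with 2 at an unadjusted p below 0.05 (27.3% of all genes). With a change of at least 2-fold required as well, the counts were 5 of 7 in disseminated minus adenoma (10.5% of all genes), 5 in disseminated minus carcinoma (11.5%), 1 in metastases minus adenoma (14.5%), 2 in metastases minus carcinoma (9.91%) and 2 in metastases minus disseminated (7.08%).

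Groups did not overlap for 5 of 7 genes in disseminated minus adenoma (9.34% of all genes) and for 1 of 7 in disseminated minus carcinoma (7.15%). They overlapped for all 7 in carcinoma minus adenoma (10.5% of all genes did not), metastases minus adenoma (21.3%), metastases minus carcinoma (13.4%) and metastases minus disseminated (4.16%). The median log2 difference of the list was 3.31 and 3.09 in these comparisons, 1.27 and 0.97 in metastases minus adenoma and minus carcinoma, -1.32 in metastases minus disseminated and -0.04 in carcinoma minus adenoma. The median over all genes lay between -0.07 and 0.07. These comparisons share groups of arrays and are not independent of each other.

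Adenomas and disseminated pools shared 3 slides scanned on 1 day, and carcinomas and metastases shared 3 others scanned on another. For disseminated minus carcinoma, carcinoma minus adenoma, metastases minus adenoma and metastases minus disseminated, slide and group therefore cannot be told apart. Within each of the 3 slides with adenomas and disseminated pools, Cd274, Pdcd1lg2, Cd80, Cd86 and Icosl were all higher in the disseminated pools, by 1.98 to 4.84. With slide as a fixed term, 6 of 7 genes passed in disseminated minus adenoma. Within the slides with carcinomas and metastases, these 5 genes were higher in metastases on 2 slides, by 1.35 to 4.93, and lower on the slide that held carcinoma replicate 6, by 0.69 to 1.43 (-0.69 to -1.43). That slide held carcinoma replicates 5 and 6 and a single metastasis, replicate 2, which was low in these genes.

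The same samples were high or low in several ligands at once. Metastases replicates 1, 3 and 4 had the highest readings of Cd274, Pdcd1lg2, Cd80, Cd86 and Icosl among the 5 metastases, and replicates 2 and 5 the lowest. Carcinoma replicate 6 had the highest value of its group for these 5 genes. Disseminated replicate 6 was the lowest of its group for Cd274, Cd80 and Icosl.

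Marker genes of other cell types moved with these readings. The macrophage list mean was 3.15, 3.92 and 4.82 in metastases replicates 1, 3 and 4 and 0.72 and 1.08 in replicates 2 and 5. It was 4.50 in carcinoma replicate 6 and -0.26 to 0.69 in the other carcinomas, 0.02 to 0.49 in adenomas, and 3.25 to 4.71 in disseminated pools. All 14 of its genes were well above background in each disseminated pool and metastasis, against 10 to 13 in adenomas and 12 to 14 in carcinomas. The part of macrophage RNA in the ligand values was not tested.

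**Figure D4:**
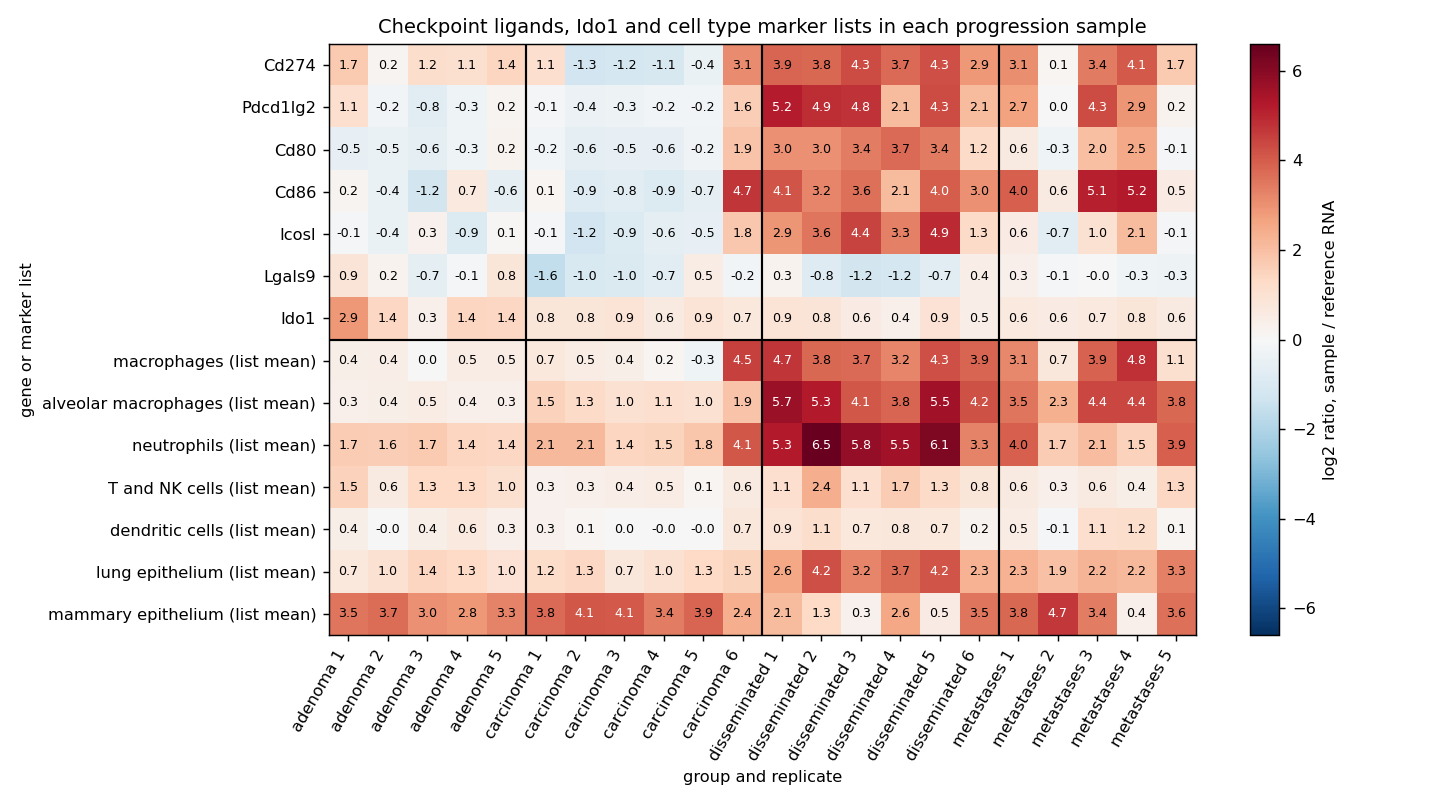
Log2 ratio of sample to reference RNA (colour and printed value) in each of the 22 progression samples (columns) for the 7 genes and for the means of 7 cell type marker lists (rows). Metastases 1, 3 and 4 and carcinoma 6 are high both for the surface ligands and for the macrophage list, and mammary epithelial means are lowest in 1 metastasis and in several disseminated pools.

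In disseminated minus adenoma, 12 of 14 macrophage genes rose and 0 fell (median difference 3.59), among them Itgam (3.65), Csf1r (4.78), the receptor of macrophage colony-stimulating factor, and Lyz2 (6.68). Of 6 alveolar macrophage genes 6 rose, among them Ear1 (7.70), Marco (3.65) and Chil3 (8.68), and of 7 neutrophil genes 6 rose, among them Mmp8 (4.01), Csf3r (4.26) and Retnlg (5.75). In disseminated minus carcinoma the counts were 9 of 14, 5 of 6 and 7 of 7. Over all genes, 8.35% were higher in disseminated minus adenoma and 9.05% in disseminated minus carcinoma. Lung epithelial genes rose in 5 of 7 cases in both comparisons, with Sftpa1, a surfactant protein, at 4.27 and 3.89, and endothelial genes in 5 of 7, with Vwf at 4.17 and 3.32.

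The 10-gene mammary epithelial list had a median difference in disseminated pools of -1.50 against adenomas (1 of 10 fell, Elf5 at -2.37) and -1.70 against carcinomas (4 of 10 fell, among them Cldn7 at -2.57, Cldn3 at -1.47 and Krt18 at -3.20). Its mean was 0.27 to 3.53 in disseminated pools, 2.84 to 3.66 in adenomas, 2.42 to 4.08 in carcinomas and 0.36 to 4.68 in metastases. Over all genes, 12.2% were lower in disseminated minus adenoma, and 26.5% passed in either direction in disseminated minus carcinoma. Disseminated replicate 6, the lowest pool for Cd274, Cd80 and Icosl, had the highest epithelial mean of its group, 3.53, and the lowest neutrophil mean, 3.29 against 5.25 to 6.52. Metastases replicate 4, the highest metastasis for Cd274, Cd80, Cd86 and Icosl, had an epithelial mean of 0.36.

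In metastases minus disseminated, where Cd80 and Icosl were lower, 6 of 7 neutrophil genes fell, with Cxcr2 at -3.03, Mmp8 at -2.46 and Csf3r at -2.66, and 1 of 14 macrophage genes, Fcer1g, fell (-3.57). Of 12 dendritic cell genes, 1 rose in disseminated minus adenoma (Itgax, 2.53, which macrophages also carry), and in disseminated minus carcinoma 2 rose (Itgax, 3.19, and Ccr7, 2.54) and 1 fell (Flt3, -0.32). Dendritic list means ranged from -0.01 to 0.63 in adenomas and 0.25 to 1.14 in disseminated pools. Over all genes, 8.35% and 9.05% were higher in disseminated pools against adenomas and carcinomas, and 6.07% were lower in metastases minus disseminated. In either direction, 26.5% passed in disseminated minus carcinoma. The dendritic count against adenomas and the macrophage count were near these shares. Of 6 B cell genes in disseminated pools, 2 rose against adenomas, and 3 rose and 1 fell against carcinomas. Among those that rose were Cd22 (1.32 and 1.18) and Cd79b (2.11 and 2.14). The share of each cell type in the ligand differences was not tested.

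The receptors moved in part. Of 12 checkpoint receptors and partners, 2 rose in disseminated minus adenoma and 5 in disseminated minus carcinoma. Havcr2, the receptor described for galectin-9 and carried by T cells and by myeloid cells, rose by 3.61 and 3.23 (adjusted p 0.0041 and 0.0037), and Cd44, an adhesion receptor, by 2.00 and 2.54 (adjusted p 0.0019 and 0.0001). Tnfrsf14 rose against carcinomas by 1.56 (adjusted p 0.0040). In metastases minus adenoma P4hb (2.74) and Rgmb (0.73), a binding partner of Pdcd1lg2, rose and Pdcd1 fell (-1.79, adjusted p 0.0307), and in metastases minus carcinoma Cd44 (1.37) and P4hb (1.95) rose. In metastases minus disseminated Tnfrsf14 (-1.34) and Cd44 (-1.17) fell. Over all genes, 8.35% and 9.05% were higher in disseminated pools against adenomas and carcinomas. In metastases minus adenoma 13.1% were higher and 15.4% lower, in metastases minus carcinoma 7.83% were higher, and in metastases minus disseminated 6.07% were lower.

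In carcinoma minus adenoma 2 receptors fell, and both were named after their values were seen. Pdcd1, the receptor of Cd274 and Pdcd1lg2, was lower by 2.43 (-2.43 ± 0.57, adjusted p 0.0108), and Icos, the receptor of Icosl, by 2.62 (-2.62 ± 0.78, adjusted p 0.0350). In the same comparison 3 of 12 T and NK cell genes fell, Nkg7 (-3.44), Cd3d (-2.81) and Cd3g (-1.39), again named after their values were seen. Over all genes, 11.8% passed in this comparison in either direction. The T and NK cell list mean was 0.60 to 1.51 in adenomas and 0.13 to 0.61 in carcinomas. In disseminated pools it was 0.80 to 2.41, with 2 of 12 genes higher and 1 lower against adenomas and 7 higher against carcinomas, among them Gzmb (2.41 and 2.62), the granzyme B gene. Over all genes, 8.35% were higher and 12.2% lower against adenomas, and 9.05% were higher against carcinomas.

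In the list of 15 other checkpoint ligands, 4 genes rose in disseminated minus adenoma. Among them were Lgals3 (2.90), the galectin-3 gene, Vsir (2.23), which encodes VISTA, and Cd40 (2.86), which encodes a receptor and not a ligand. In disseminated minus carcinoma 4 of 15 rose, among them Cd47 (2.01), a signal against phagocytosis, Lgals3 (2.03) and Cd200 (1.28). In metastases minus adenoma 2 rose, Lgals3 (2.40) and Vsir (1.79). Over all genes, 8.35%, 9.05% and 13.1% were higher in these comparisons, in that order, and the last count was near its share. The median differences of the list, 0.32, 0.44 and 0.40, stood beside 3.31, 3.09 and 1.27 for the 7 genes.

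In the kynurenine pathway, Kynu, the kynureninase gene, rose in disseminated pools by 1.45 against adenomas and by 1.27 against carcinomas (adjusted p 0.0110 and 0.0128), while 3 and 2 of 13 genes fell, among them Kyat1 (-1.50 and -2.37), which encodes a kynurenine aminotransferase. In metastases minus adenoma Kmo (0.78), kynurenine monooxygenase, and Slc3a2 (1.15) rose and Slc7a5 (-1.36) fell. The products of the last pair form a transporter of large amino acids, tryptophan among them. Over all genes, 8.35% were higher and 12.2% lower in disseminated minus adenoma. In disseminated minus carcinoma, 9.05% were higher and 26.5% passed in either direction. In metastases minus adenoma, 13.1% were higher and 15.4% lower. The counts of pathway genes that rose were near these shares. Against carcinomas, the genes that passed in either direction, 1 higher and 2 lower of 13, were near their share as well. Ido2 and Tdo2, which encode the other enzymes that open the tryptophan ring, did not pass in either disseminated comparison or in metastases (Ido2 0.17 and 0.02, Tdo2 0.11 and -0.18 in disseminated minus adenoma and minus carcinoma).

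Of 15 genes between interferon gamma and Cd274 or Ido1, 4 rose and 1 fell in disseminated minus adenoma, among them Socs3 (2.10), and 6 rose in disseminated minus carcinoma, among them Ifngr2 (1.66), a chain of the interferon gamma receptor, and Jak1 (0.97). In metastases minus adenoma Irf1 (0.99) and Socs3 (2.22) rose and Jak1 fell (-1.09), with 2 genes higher and 2 lower in all. In metastases minus carcinoma 6 rose, among them Irf1 (1.50), and 2 fell, and in metastases minus disseminated 2 rose (Irf1, 1.35, and Irf9, 0.67) and Jak1 fell (-1.63). In carcinoma minus adenoma 3 of 15 fell, among them, named after their values were seen, Ifng (-3.54 ± 0.74, adjusted p 0.0052) and Ifngr2 (-1.34). Over all genes, 8.35% and 9.05% were higher in disseminated pools against adenomas and carcinomas, and 13.1% and 7.83% in metastases. In metastases minus adenoma 15.4% were lower, so its counts, 2 and 2, were near these shares. In either direction, 21.9% passed in metastases minus carcinoma, 13.0% in metastases minus disseminated and 11.8% in carcinoma minus adenoma. Ifng had group means of 4.20 in adenomas, 0.67 in carcinomas, 2.58 in disseminated pools and 2.12 in metastases. The means of Ido1 in the same order were 1.47, 0.79, 0.68 and 0.66. Both genes were highest in adenomas, but Ido1 was not higher in disseminated pools or metastases than in carcinomas. A link between these genes was not tested.

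The genes most like each member were sought among genes well above background on every array of an experiment, which was possible for Cd274, Icosl and Lgals9 in the 16 chemotherapy arrays and for Cd274 and Lgals9 in the 22 progression arrays. In the chemotherapy arrays, Cd274 was most like Itgb7, Gsdmd and H2-Ab1 (Pearson r 0.914, 0.909 and 0.907), Icosl like Paqr4, Mxd3 and Zfp957 (0.891, 0.887 and 0.859) and Lgals9 like Eif2ak2, Parp12 and Oas1a (0.923, 0.915 and 0.910). In the progression arrays, Cd274 was most like Slc15a3, Ptprc, which encodes the leukocyte antigen CD45, and Cybb, a chain of the phagocyte oxidase (0.970, 0.959 and 0.959), and Lgals9 was most like Psmb8, Gbp6 and Naa20 (0.802, 0.795 and 0.791). These correlations were the highest among 10877 and 11161 genes, the arrays share a reference and groups, and they are given as a description.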

How the data were processed

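Per the labels and the study's methods, RNA of the untreated, residual and relapsed samples was labelled after 1 round of amplification and that of the progression samples after 2, and Feature Extraction 10.7 read the scans. The authors deposited spot intensity in each channel (mean signal and median local background), the software's processed intensity, and flags for spots well above background. They also deposited a table of log2 ratios, used as an alternative (correlation with the values here 0.966 to 0.998 per array, same direction). Genome positions are those of the array design.

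Intensities were background-corrected with limma 3.58.1 (normexp, offset 50, R 4.3.3), normalized by loess within arrays and quantiles between the arrays of an experiment, and averaged per probe. Of 41174 probes, 22973 were named by accession through the RefSeq gene table and the rest kept the name in the file. Per gene, the probe with the highest mean sample signal over the experiment was used, so Cd80 has different probes in the experiments. A single limma model per experiment held every group, with Benjamini-Hochberg adjustment over 28787 genes, and errors are SE unless given as SD. The fit was tested on simulated data. Members, lists and tests were chosen with earlier results of these data known. Named genes were the 7 members, up to 3 genes per list with the smallest adjusted p where a member passed, and the 3 most correlated genes. List genes in comparisons where no member passed, and Ido2 and Tdo2, were named after their values were seen. Whether arrays of a group came from separate mice was not stated for every group, and p-values measure the spread between these arrays, whose number limits the precision.

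Replicate numbers were not taken as pairs, since correlations between same-numbered arrays of different groups were mixed. Alternatives covered normalization, background, thresholds, probes, slides, the model and leaving out each array. Figures were drawn with matplotlib. Some list genes are not reported by name here.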

Additional observations from a re-analysis of the deposited data

Results flagged for a closer look

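Of 49 tests for an extreme array in a group (7 genes in 7 groups), 5 found a highest or lowest sample set far from its nearest neighbour relative to the range of the group, and chance gives such a gap in about 1 in 20 groups. Of these, 4 were carcinoma replicate 6, at 1.62 for Pdcd1lg2 (next carcinoma -0.13), 1.88 for Cd80 (-0.16), 4.71 for Cd86 (0.12) and 1.79 for Icosl (-0.12). In Cd274 the same array read 3.13, the highest of its group, without a gap of that relative size. The remaining one was disseminated replicate 6, at 1.25 for Cd80 where the next lowest pool read 3.03. Carcinoma replicate 6 also had the highest macrophage and neutrophil list means among carcinomas, 4.50 and 4.09, and the lowest mammary epithelial mean, 2.42. The part of other cells in these values was not tested.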

How the results depend on the processing

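The 5 surface ligands passed in disseminated minus carcinoma under all normalizations, models and left-out arrays (5 of 7 each time, 4 at an adjusted p below 0.01). In disseminated minus adenoma the count was 6 in the main fit, 3 at the stricter 0.01 and 5 to 6 with 1 array left out. It was also lower in the processing alternatives where Ido1 was lost, as given below. Ido1 passed residual minus untreated, giving 1, with normexp offset 0, with processed signals, with median centring and with all arrays normalized together, and 0 to 1 with 1 array left out. For relapsed minus residual, processed signals gave 1, and leaving out 1 array gave 0 to 1. Relapsed minus untreated gave 0 to 0 and carcinoma minus adenoma 0 to 1.

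Metastases minus adenoma (2) gave 0 at 0.01 and with the equal-variance t-test without moderation, and 1 with a 2-fold requirement, with Aquantile, with no normalization between arrays and with only the compared groups in the model. With 1 array left out it gave 0 (without metastases replicate 3) to 4 (without metastases replicate 2), and 1 without metastases replicate 1 or 4 or adenoma replicate 4. Metastases minus carcinoma (2) gave 0 at 0.01, with the unmoderated test and with only the compared groups, and 1 with the mean of the probes and with slide as a fixed term, where Cd86 was lost each time. It gave 0 without metastases replicate 1, 3 or 4, 1 without any of carcinoma replicates 1 to 5, and 4 without carcinoma replicate 6. Metastases minus disseminated (2) gave 0 with the unmoderated test, 1 at 0.01, with processed signals, with the mean of the probes and with only the compared groups, and 1 (without metastases replicate 2) to 3 (without metastases replicate 3 or disseminated replicate 6) with 1 array left out. The cause of these changes was not tested.

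No member changed direction where it had passed. Of single calls under alternatives, 61 were lost and 409 kept. Ido1 in disseminated minus adenoma passed in 9 of 17 alternatives (adjusted p 0.0086 to 0.358) and in metastases minus adenoma in 9 of 16 (0.0090 to 0.326).

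With the replicate number as a block, the counts were 0, 0 and 0 in the chemotherapy comparisons, 0 in carcinoma minus adenoma, 5 in disseminated minus adenoma, where Ido1 was lost (adjusted p 0.0614), 5 in disseminated minus carcinoma and 2 in each metastasis comparison. Same-numbered arrays had correlations from -0.41 to 0.42 in the chemotherapy and -0.41 to 0.33 in the progression experiment. Of these, 6 of 14 and 8 of 31 were above 0.1, against 20 of 70 and 45 of 150 differently numbered pairs. These correlations cannot settle whether the numbers pair the arrays. Slide as a fixed term could not be fitted for disseminated minus carcinoma, carcinoma minus adenoma, metastases minus adenoma or metastases minus disseminated. Signal over background limits Cd80 and Pdcd1lg2 in the chemotherapy arrays, where neither was well above background, and Ido1 there, which was not well above background in untreated and relapsed tumors.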
